A study of Homo sapiens with 6 samples.

Results

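DEAD and DEAH box RNA helicases were followed in T24, a human bladder cancer cell line, carrying either a control hairpin (shControl) or one of the same kind against the long noncoding RNA BLACAT3 (shBLACAT3), both of them short RNAs that set off RNA interference. The members are all genes of the deposited table whose symbol starts with DDX or DHX and a digit, without the innate RNA sensor genes DDX58, DDX60, DDX60L and DHX58. They number 46 of 11081 gene rows, 31 named DDX and 15 named DHX, and all 46 are protein coding in GENCODE 29. Both groups had 3 RNA-seq libraries, 6 in all, made from cells that carried their hairpin on a lentivirus and were selected with puromycin, so the control cells were transduced and selected as well. The labels name 1 construct per group and do not say whether the selected strains were clones or whether the replicates were separate cultures, so the p-values below speak of the scatter among 6 libraries that may be technical repeats. The genotype label of the shControl cells is WT and that of the shBLACAT3 cells is BLACAT3 knockdown, and BLACAT3 was not analysed here, so the labels could not be checked against it.

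These helicases share a core of paired RecA-like domains that binds ATP and RNA, and the family is named after a short amino acid motif, Asp-Glu-Ala-Asp or Asp-Glu-Ala-His, in the site that hydrolyses ATP. DEAD box proteins clamp onto RNA and pry apart short duplexes locally, while DEAH box proteins move along a strand and pull on structures from a distance. Members drive the steps of the spliceosome, the folding and cutting of ribosomal RNA, the export of messenger RNA through the nuclear pore, translation initiation and the storage or decay of messenger RNA.

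Values are FPKM, fragments counted per kilobase of a transcript and scaled by library size, which allow levels of different genes to be compared per length. The listed values of a library summed to between 211958 and 226953 FPKM over all rows, and the read depth is unknown because FPKM values hold no counts. The line was checked against 14 listed genes, made up of urothelial and epithelial markers and the mesenchymal marker VIM. KRT7, KRT8, KRT18, PPARG and VIM had a row, with KRT8 at 20.0 to 63.8 FPKM and VIM at 201 to 274. The other 9, among them the uroplakins, GATA3, EPCAM and CDH1, had no row and were not analysed here. KRT8 and KRT18 were lower in shBLACAT3 cells (limma adjusted p 0.000389 and 0.0222). KRT7 (20.0 ± 5.62 and 32 ± 3.45 FPKM, adjusted p 0.0967) and PPARG (3.77 ± 0.434 and 4.71 ± 0.307, adjusted p 0.145) had all shBLACAT3 libraries higher and did not pass, and VIM overlapped (adjusted p 0.19). The part of these markers in the helicase values was not tested. Of 6 leukocyte and endothelial markers, 0 had a row. The values are averages over all cells of a culture, so fewer cells that express a gene and less RNA per cell cannot be told apart.

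The 3 helicase genes that passed the test described below are shown first by the sequence just before their start, next to that of DDX60, an interferon-induced helicase gene left out of the family here, as a contrast. The sequences are RefSeq's, on GRCh38.p14, 5′ to 3′ on the gene's strand, and cover the part of the 250 bases before the start that no annotated exon covers. Capitals mark matches, on either strand, to 7 motifs, none of which contains another. They were the E-box with the letters CACGTG, the ETS site searched as CCGGAAG, the GC box searched as GGGCGG, the CCAAT box as those same letters and the TATA box as TATAAA. The consensus NRF1 site and the interferon-stimulated response element, a repeated GAAA, were the others. The DHX32 stretch lies at chr10:125881316-125881542 on the minus strand, that of DDX39A at chr19:14419384-14419633 on the minus strand, that of DDX55 at chr12:123601849-123602076 on the plus strand and that of DDX60 at chr4:168318808-168319002 on the minus strand.
DHX32: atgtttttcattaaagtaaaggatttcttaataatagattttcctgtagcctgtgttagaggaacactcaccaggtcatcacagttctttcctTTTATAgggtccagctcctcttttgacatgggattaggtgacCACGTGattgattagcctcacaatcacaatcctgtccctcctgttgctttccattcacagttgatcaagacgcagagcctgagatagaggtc
DDX39A: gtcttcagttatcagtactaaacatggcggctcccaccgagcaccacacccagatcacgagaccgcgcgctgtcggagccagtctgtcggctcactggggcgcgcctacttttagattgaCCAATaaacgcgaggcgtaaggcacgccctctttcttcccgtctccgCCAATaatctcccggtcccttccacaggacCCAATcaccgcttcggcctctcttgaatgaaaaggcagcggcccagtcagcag
DDX55: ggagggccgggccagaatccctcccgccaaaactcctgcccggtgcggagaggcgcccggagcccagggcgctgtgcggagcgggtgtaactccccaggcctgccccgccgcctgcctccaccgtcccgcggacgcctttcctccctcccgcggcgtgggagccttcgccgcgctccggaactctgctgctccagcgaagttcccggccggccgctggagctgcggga
DDX60: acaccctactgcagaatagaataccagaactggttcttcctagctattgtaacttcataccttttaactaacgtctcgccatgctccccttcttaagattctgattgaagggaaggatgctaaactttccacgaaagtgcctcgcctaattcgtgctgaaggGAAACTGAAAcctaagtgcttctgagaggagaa
The DHX32 stretch held an E-box and a TATA box, that of DDX39A held CCAAT boxes, that of DDX55 held none of the 7 motifs, and that of DDX60 held the interferon-stimulated response element.

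Of the 46 members, 42 were matched to the promoter table, with 56 windows, some of which overlap because a gene has several starts. Unlike the stretches shown above, a window here is all 250 bases before the start, with bases covered by annotated exons included. Some of the matches counted therefore lie in exons. An ETS site was present in 18 of the 56 windows (32.1%), against 15.8% of the 11640 windows of genes tested and 8.52% of all 35116 windows. CCAAT boxes were present in 41.1% of the members' windows (33.6% of windows of genes tested and 32% of all), E-boxes in 14.3% (8.31% and 6.34%), GC boxes in 60.7% (65.6% and 42.6%), TATA boxes in 7.14% (5.32% and 10.7%) and the NRF1 site in 3.57% (1.85% and 1.03%). The interferon-stimulated response element was found in 1 member window, that of DHX15 (1.79%, against 2.39% of windows of genes tested and 3.02% of all), and in 2 of 3 windows of left-out sensor genes, those of DDX60 and DDX60L. These matches describe letters in the windows and show no binding.

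The 46 genes spanned a wide range of levels. The median of their means was 13.9 FPKM, against 7.15 for all 10008 genes tested (the genes that averaged 1 FPKM or more, among them all 46 members). Means were at least 50 FPKM in 4 members, from 10 to under 50 in 24 and under 10 in 18. The 5 highest held 39.0% of the family's summed FPKM.

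DDX21, a nucleolar helicase of ribosomal RNA synthesis and processing, had the highest level, at 124, 129 and 119 FPKM in shControl replicates 1, 2 and 3 and 139, 143 and 121 in shBLACAT3 replicates 1, 2 and 3. Its lowest library lay above the highest library of every other member. DHX9, an RNA helicase of the nucleus that unwinds double-stranded RNA and R-loops, followed with 65.6, 65.6 and 64.6 FPKM in shControl and 65.5, 67.2 and 66.3 in shBLACAT3 cells. DDX5, a coregulator of splicing and transcription also called p68, stood at 64.6, 62.9 and 64.1 and at 65.6, 70.6 and 63.2 FPKM, so that its libraries and those of DHX9 overlapped. DDX1, a subunit of the tRNA ligase complex, ranged from 49.9 to 65.0 FPKM, overlapping both of these. DDX17, also called p72 and the closest relative of DDX5, ranged from 44.6 to 49.4. Below them came DDX3X, DDX18, DDX27, DDX39B and DHX15 in the order of their means, and at the lower end DHX34, a factor of nonsense-mediated decay (2.21 to 3.18 FPKM), DHX37, a helicase of small ribosomal subunit assembly (2.25 to 3.56), and DDX11, a DNA helicase of sister chromatid cohesion (2.51 to 3.69), whose ranges overlapped.

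**Figure D1:**
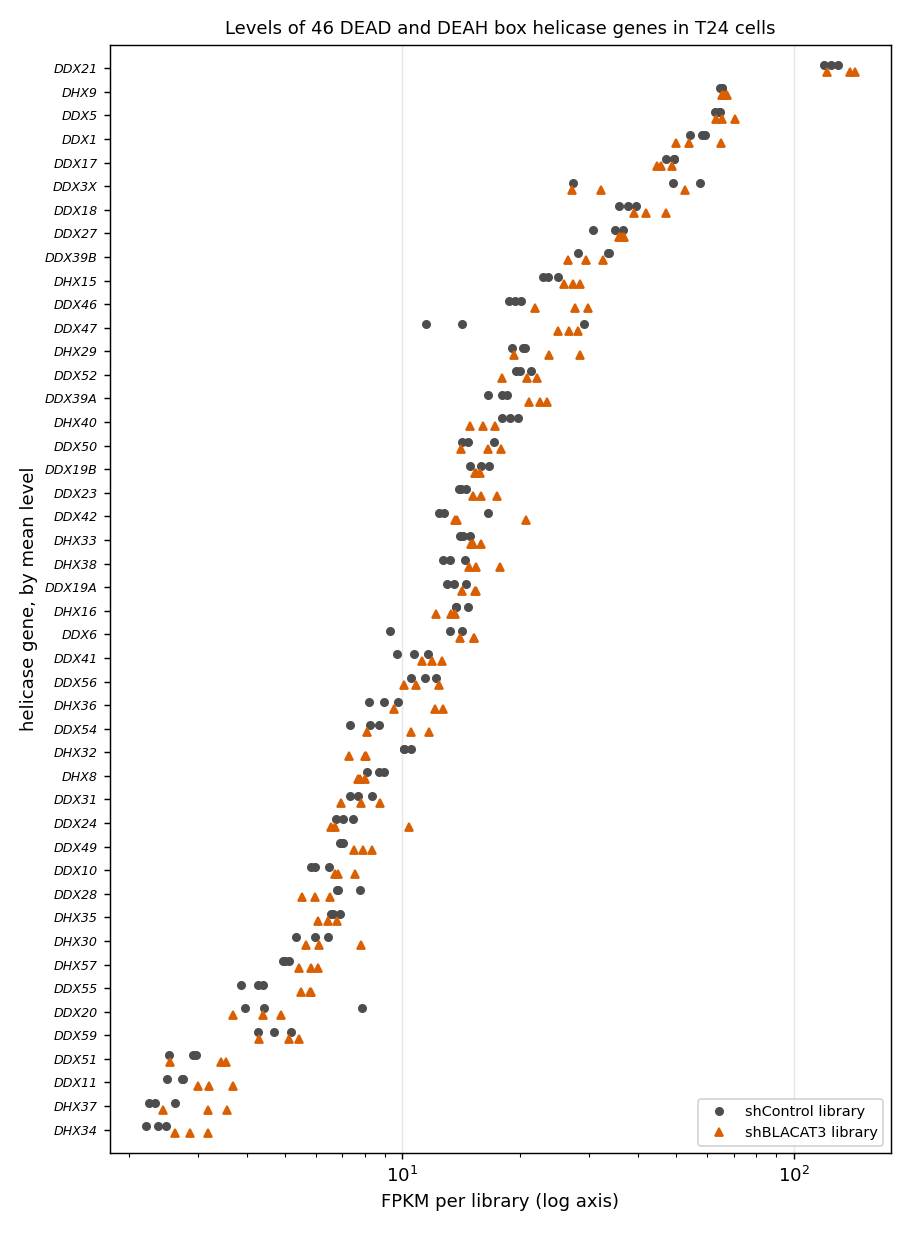
Level of each of the 46 helicase genes in FPKM on a log axis, 1 point per library (grey circles shControl, orange triangles shBLACAT3), ordered by mean level. DDX21 stands alone at the top with 119 to 143 FPKM, and for most genes the points of the groups lie on top of each other.

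The comparison of shBLACAT3 with shControl cells asked which helicase genes differ when BLACAT3 is knocked down. Differences were small: DHX32 was lower in shBLACAT3 cells and DDX55 and DDX39A were higher, with differences of -0.35, 0.37 and 0.32 on the log2(FPKM + 1) scale, and the other 43 members did not pass. In limma, with adjustment over all 10008 genes at a threshold of 0.05, 3 of 46 members passed (6.52%), against a background of 9.37% of all genes. In single directions, 2 members were higher (4.35%, background 2.57%) and 1 was lower (2.17%, background 6.8%). An unadjusted p under 0.05 was reached by 12 members (26.1%), against 25.7% of all genes. The share of members called was thus near or under the background.

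The direction of the means leaned upward. In 32 of 46 members (69.6%) the shBLACAT3 mean was higher, against 49.4% of all genes, and the median log2 difference was 0.113 over the members and -0.002 over all genes. The groups did not overlap, with all shBLACAT3 libraries higher, in 12 members (26.1%, background 14.1%), and with all lower in 5 (10.9%, background 18.7%). In 38 members the absolute log2 difference was under 0.25 (82.6%, against 71.4% of all genes), and 0 members reached 1. The median absolute log2 difference was nonetheless slightly larger over the members, 0.166 against 0.146 over all genes. Summed over the family, the level was 906, 890 and 926 FPKM in shControl and 956, 991 and 929 in shBLACAT3 libraries, without overlap, and the nearest libraries of the groups stood at 926 and 929. DDX and DHX genes had like medians, 0.112 over 31 and 0.113 over 15, but differed in other counts. The groups did not overlap in 25.8% of DDX and 60% of DHX genes (background 32.8%). All shBLACAT3 libraries were lower in 3.23% and 26.7% (background 18.7%). An unadjusted p under 0.05 was reached by 19.4% and 40% (background 25.7%). The difference between DDX and DHX genes was not tested.

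**Figure D2:**
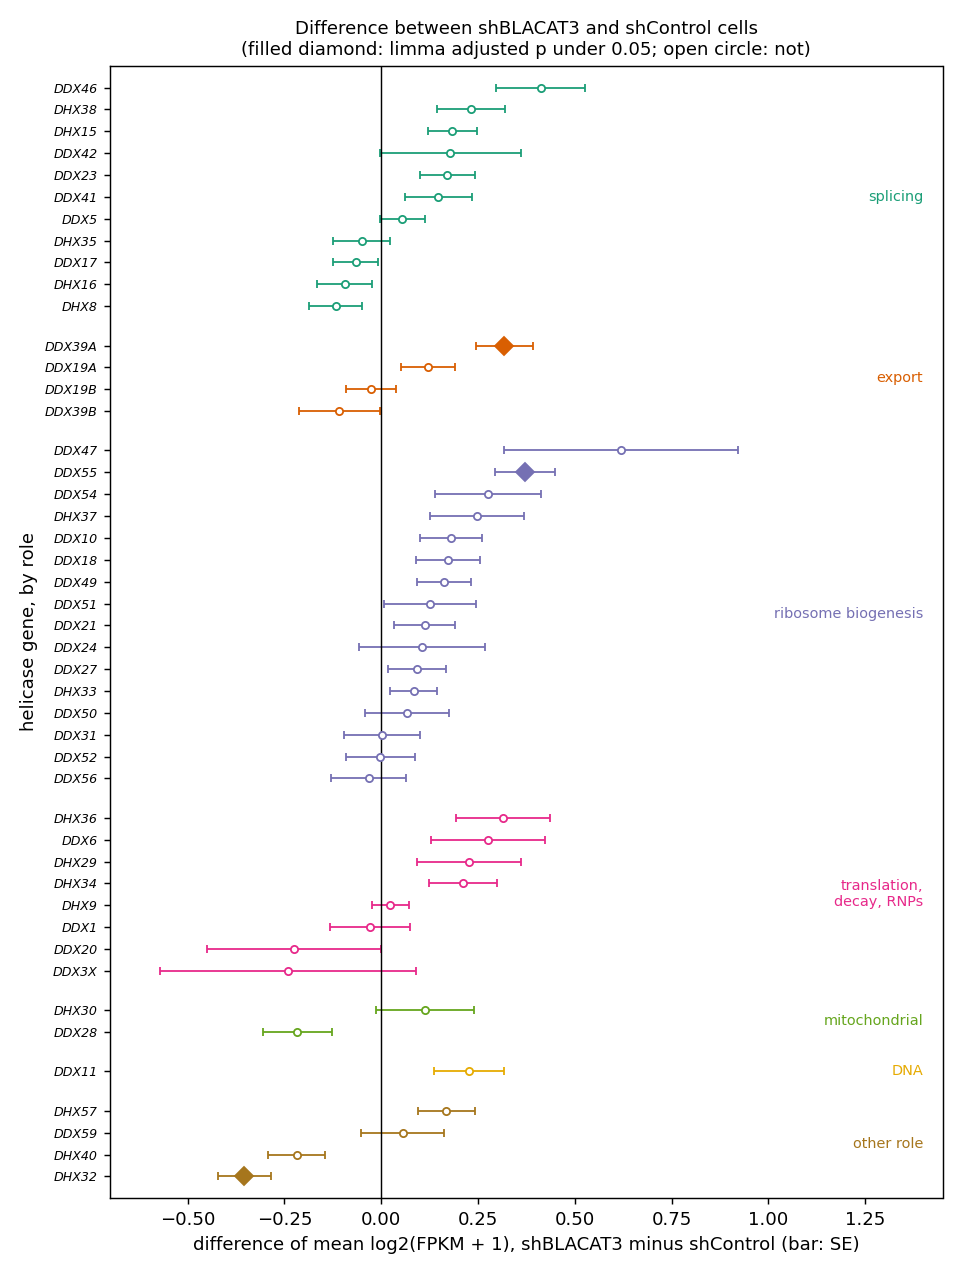
Difference of mean log2(FPKM + 1), shBLACAT3 minus shControl, with its standard error, for the 46 genes grouped by role. Filled diamonds mark DHX32, DDX55 and DDX39A, the members with a limma adjusted p under 0.05, and open circles the other 43.

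DHX32, a DEAH box protein whose cellular task is little known, stood at 10.5, 10.1 and 10.1 FPKM in shControl and at 7.31, 8.01 and 8.06 in shBLACAT3 cells. Every shBLACAT3 library lay under every shControl library. The means were 10.2 ± 0.201 and 7.80 ± 0.417 FPKM (SD, n = 3), with a log2 difference of -0.35 (SE 0.07) and a limma adjusted p of 0.0263. The call was lost without shControl replicate 1 (0.116), 2 (0.0954) or 3 (0.0969) or shBLACAT3 replicate 1 (0.0741), and over 14 other settings the adjusted p ran from 0.0161 to 0.116. BCCIP, on the opposite strand, covers 10.4% of the exonic bases of DHX32 in GENCODE 29, and it stood at 24.2 ± 1.59 and 28.2 ± 2.44 FPKM (adjusted p 0.176). The library kit keeps strand, but the strand setting of the counting is not given in the sources used here.

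DDX55, a helicase that acts on precursors of the large ribosomal subunit, stood at 3.88, 4.41 and 4.28 FPKM in shControl and at 5.84, 5.79 and 5.50 in shBLACAT3 cells, and the groups did not overlap. Its means were 4.19 ± 0.276 and 5.71 ± 0.186 FPKM (SD, n = 3), a log2 difference of 0.37 (SE 0.08, limma adjusted p 0.032). It lost the call in 5 of the 6 fits that left out 1 library and kept it only without shBLACAT3 replicate 3 (0.0384), with adjusted p from 0.0253 to 0.13 over the 14 other settings. Its opposite-strand neighbour EIF2B1 covers 9.4% of its exonic bases and stood at 21.1 ± 1.02 and 23.1 ± 1.42 FPKM (adjusted p 0.319).

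DDX39A, an export helicase that loads onto messenger RNA with the TREX complex, stood at 18.5, 16.5 and 18.0 FPKM in shControl and at 22.4, 21.0 and 23.4 in shBLACAT3 cells, again without overlap. The means were 17.7 ± 1.08 and 22.3 ± 1.21 FPKM (SD, n = 3), a log2 difference of 0.32 (SE 0.07, limma adjusted p 0.0432). This call was the least steady of the 3: it was kept in 5 of 14 other settings, with adjusted p from 0.0335 to 0.143, and of the fits that left out 1 library only that without shBLACAT3 replicate 2 kept it (0.0478). Median scaling (0.0589) and quantile normalization (0.051) lost it as well.

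**Figure D3:**
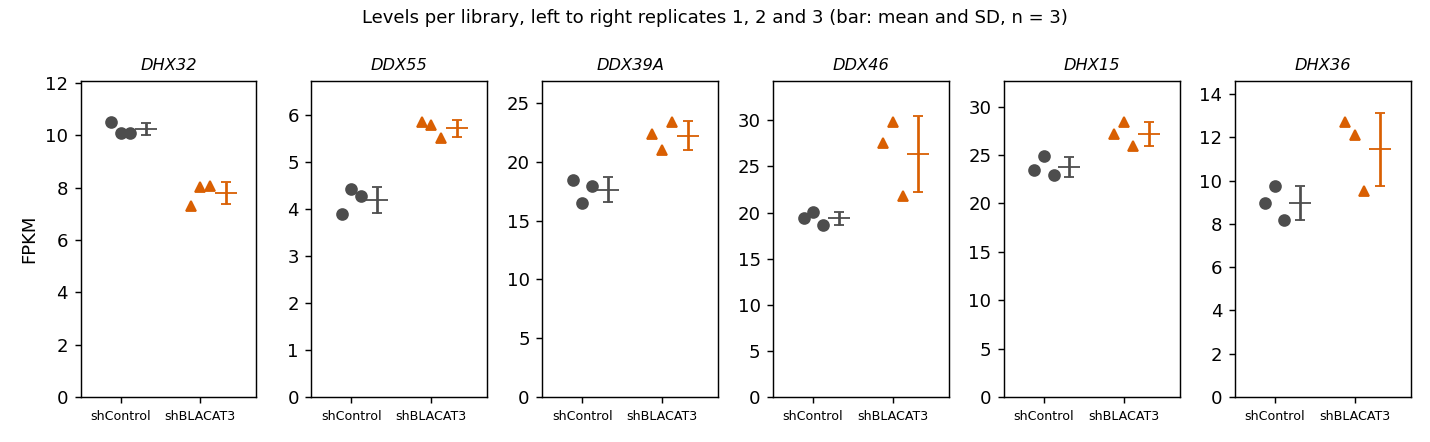
FPKM per library for the 3 helicase genes past the threshold (DHX32, DDX55, DDX39A) and for DDX46, DHX15 and DHX36, with the mean and SD of 3 libraries beside the points. The groups do not overlap except in DHX36, whose shBLACAT3 replicate 3 (9.52 FPKM) lies among the shControl libraries.

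Among the 11 splicing helicases 0 passed in limma (against 9.37% of all genes), and 4 had an unadjusted p under 0.05 (36.4%, against 25.7% of all genes), namely DDX46, DHX15, DHX38 and DDX23. The median log2 difference was 0.147. DDX46, the human PRP5, which remodels the U2 particle as the branch site is chosen, stood at 19.4, 20.1 and 18.7 FPKM in shControl and at 27.5, 29.8 and 21.8 in shBLACAT3 cells. Replicate 3 of shBLACAT3 lay nearest to the controls. The log2 difference was 0.41 (SE 0.12, adjusted p 0.0795), and without shBLACAT3 replicate 3 it was 0.54 and passed (0.0103, range over 14 settings 0.0103 to 0.214). With array weights, which keep all 6 libraries, it was 0.43 and also passed (0.0352). Both fits called more genes of the whole table higher, 589 without shBLACAT3 replicate 3 and 365 with array weights, against 257 as reported. DHX15, the human PRP43, which takes spent spliceosomes apart, stood at 23.5, 24.9 and 22.9 and at 27.2, 28.4 and 25.9 FPKM, without overlap and without passing (adjusted p 0.134). DHX38, the human PRP16, at 13.4 ± 0.863 and 16.0 ± 1.51 FPKM, and DDX23, the human PRP28, at 14.2 ± 0.301 and 16.1 ± 1.16, were also without overlap and did not pass (adjusted p 0.159 and 0.193). PMFBP1 and TXNL4B, on the opposite strand, cover 12.2% of the exonic bases of DHX38.

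The other 7 splicing helicases did not pass either. DHX16, the human PRP2, at 14 ± 0.588 and 13.1 ± 0.745 FPKM, and DHX8, the human PRP22, at 8.59 ± 0.417 and 7.84 ± 0.169, had all shBLACAT3 libraries under all shControl libraries, with adjusted p of 0.442 and 0.332. DDX5 (log2 difference 0.06, SE 0.06) and DDX17 (-0.07, SE 0.06) did not pass (adjusted p 0.598 and 0.519). DDX41, a splicing factor mutated in inherited myeloid leukaemia, stood at 10.7 ± 0.965 and 11.9 ± 0.676 FPKM (log2 difference 0.15) and DDX42 at 13.9 ± 2.23 and 16.0 ± 4.07 (0.18), both with a higher mean in shBLACAT3 cells and overlapping libraries. DHX35 overlapped as well, at 6.70 ± 0.189 and 6.44 ± 0.369.

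Of the 16 helicases of ribosome biogenesis 14 had a higher mean in shBLACAT3 cells (87.5%, against 49.4% of all genes) and 1, DDX55, passed (6.25%, against 9.37%). The groups did not overlap in 4, all higher (25%, against 14.1%). Their median log2 difference was 0.119, and their summed level was 314, 321 and 327 FPKM in shControl and 365, 367 and 334 in shBLACAT3 libraries. DDX21 made up the largest part of this sum, with a log2 difference of 0.11 (SE 0.08, adjusted p 0.416). DDX18, a helicase of the large subunit, stood at 37.6 ± 1.87 and 42.6 ± 4.12 FPKM (adjusted p 0.25). DDX10 (6.10 ± 0.344 and 7.05 ± 0.444 FPKM), DDX49 (6.99 ± 0.0638 and 7.95 ± 0.426) and DHX33 (14.4 ± 0.439 and 15.3 ± 0.506) were the other members without overlap, with adjusted p of 0.211, 0.204 and 0.433.

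The rest of the ribosomal group had overlapping libraries. DDX54, at 8.10 ± 0.713 and 10.1 ± 1.84 FPKM, and DHX37, at 2.40 ± 0.190 and 3.06 ± 0.572, had log2 differences of 0.28 and 0.25 with adjusted p of 0.259 and 0.255. DDX27, DDX24, DDX51 and DDX50 had log2 differences from 0.07 to 0.13, and DDX31, DDX52 and DDX56 from -0.03 to 0.00. DDX47 is described with the unsteady genes below.

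Of 4 measured export helicases, DDX39A passed (25%, against 9.37% of all genes) and the others did not. DDX39B, also called UAP56, the near relative of DDX39A, stood at 28.1, 33.7 and 33.5 FPKM in shControl and at 26.4, 29.4 and 32.5 in shBLACAT3 cells, with overlapping groups and a log2 difference of -0.11 (SE 0.10, adjusted p 0.561). Other genes on its strand, among them a readthrough transcript with ATP6V1G2, cover 30.8% of its exonic bases, so its value depends on how shared fragments were assigned. DDX19A (13.7 ± 0.750 and 14.9 ± 0.672 FPKM) and DDX19B (15.8 ± 0.850 and 15.5 ± 0.270), neighbouring near-identical genes of the helicase that strips proteins from messenger RNA at the pore, share 23.8% and 15.7% of their exonic bases with a joint transcript, and their split is uncertain.

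Pairs of related members were compared by the ratio of their FPKM within each library, for 6 pairs with an exact two-sided permutation test, in which 3 libraries against 3 cannot give a p under 0.1. The DDX39A to DDX39B ratio was 0.661, 0.488 and 0.536 in shControl and 0.850, 0.714 and 0.719 in shBLACAT3 cells, without overlap (exact p 0.1, adjusted over the 6 pairs 0.2). The DDX5 to DDX17 ratio, 1.31 ± 0.0414 and 1.43 ± 0.0137 (SD, n = 3), and the DDX19A to DDX19B ratio, 0.864 ± 0.0447 and 0.965 ± 0.0389, also did not overlap (exact p 0.1 each, adjusted 0.2). DDX21 stood 8.12 ± 0.458 and 8.36 ± 0.296 times above DDX50, its nucleolar relative (exact p 0.5). The DHX9 to DHX36 ratio was 7.31 ± 0.579 and 5.88 ± 0.956 (exact p 0.2), and the DDX3X to DDX6 ratio was 3.93 ± 2.14 and 2.55 ± 1.05 (exact p 0.5), both with overlapping groups. No ratio can reach the threshold in this design.

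Of 8 measured helicases of translation, decay and RNP assembly 0 passed (against 9.37% of all genes), and the median log2 difference was 0.117. DHX36, which unwinds G-quadruplexes in messenger RNA, stood at 8.98, 9.75 and 8.19 FPKM in shControl and at 12.7, 12.1 and 9.52 in shBLACAT3 cells. Replicate 3 of shBLACAT3 lay under shControl replicate 2. The log2 difference was 0.31 (SE 0.12, adjusted p 0.165), and without shBLACAT3 replicate 3 it was 0.43 and passed (0.0366, range over 14 settings 0.0366 to 0.375). That fit called 589 genes of the whole table higher, against 257 as reported. DHX29, which helps the small ribosomal subunit scan structured leaders, stood at 20.3, 20.5 and 19.0 and at 23.7, 28.4 and 19.3 FPKM, again with the lowest shBLACAT3 value in replicate 3 (adjusted p 0.332). DDX6, the helicase of P-bodies and of translational repression, stood at 13.2, 14.2 and 9.30 and at 15.2, 15.2 and 14 FPKM (adjusted p 0.292). DHX34, at 2.36 ± 0.144 and 2.89 ± 0.280 FPKM, had groups without overlap and did not pass (adjusted p 0.193).

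DHX9 was among the steadiest genes of the whole table. Its highest library was 1.04 times its lowest, and its SD within groups on the log2 scale was the 8th lowest of 10008 genes. The log2 difference was 0.02 (SE 0.05, adjusted p 0.802). Across the family the highest library was more than 2 times the lowest in 3 members, DDX3X, DDX20 and DDX47.

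DDX3X, a helicase of translation initiation on structured leaders, was the least steady by its SD within groups (96.9th percentile of all genes tested). It stood at 49, 27.2 and 57.4 FPKM in shControl and at 27.1, 32.2 and 52.6 in shBLACAT3 cells. High and low libraries occurred in both groups, and the log2 difference of -0.24 had an SE of 0.33 (adjusted p 0.689). DDX20, also called Gemin3, a subunit of the SMN complex that assembles spliceosomal particles, stood at 4.43, 3.97 and 7.86 and at 3.70, 4.90 and 4.40 FPKM, with shControl replicate 3 apart from the other 5 libraries (adjusted p 0.57).

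DDX47, a helicase of early ribosomal RNA processing, had the largest log2 difference of the family, 0.62, with an SE of 0.30 and an adjusted p of 0.254. Its values were 14.2, 11.5 and 29 FPKM in shControl and 26.6, 24.9 and 28.0 in shBLACAT3 cells, so that shControl replicate 3 lay with the shBLACAT3 libraries. Without that library the difference was 0.99 and passed (adjusted p 0.01, range over 14 settings 0.01 to 0.499). APOLD1, a gene on the same strand whose exons cover 36.5% of the exonic bases of DDX47 in GENCODE 29, was listed at 9.70, 12.2 and 0.320 FPKM in shControl and at 0.245, 4.37 and 0.343 in shBLACAT3 cells. The libraries in which DDX47 was low were those in which APOLD1 was high. The sum of both genes was 23.9, 23.8 and 29.3 FPKM in shControl and 26.8, 29.2 and 28.4 in shBLACAT3 cells, with a highest to lowest ratio of 1.23 where that of DDX47 was 2.51. Each value is scaled by the length of its own gene, so the sum does not count shared fragments. How fragments of the shared exons were divided is not given in the sources used here and was not tested, so the DDX47 value by itself is uncertain.

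**Figure D4:**
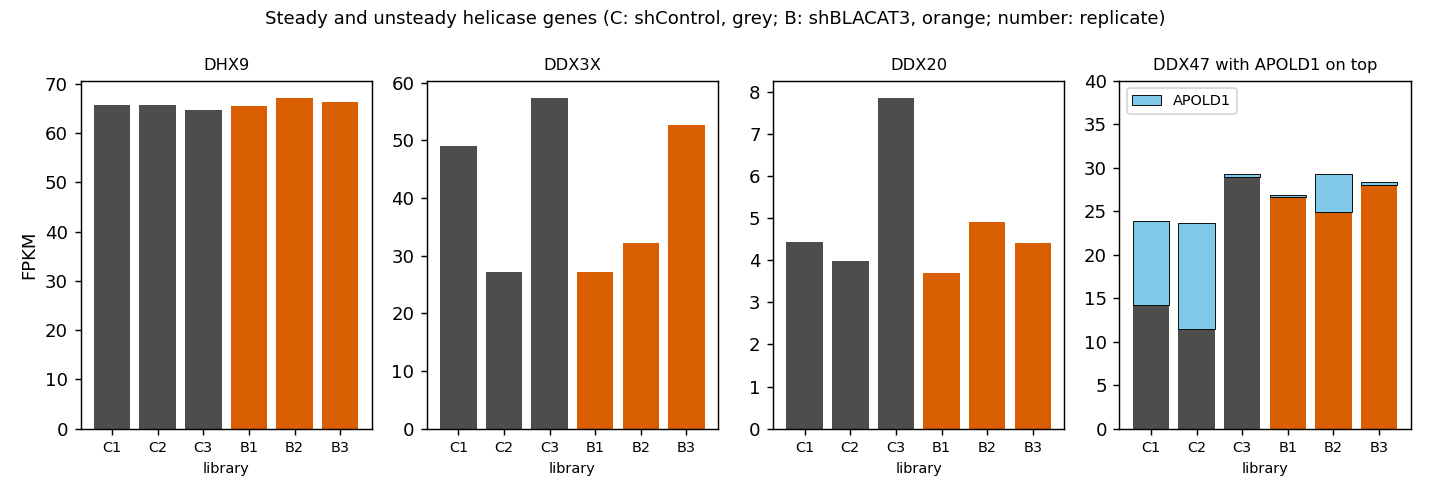
FPKM per library (bars from 0; C and grey, shControl; B and orange, shBLACAT3) for DHX9, DDX3X and DDX20, and for DDX47 with the value of the overlapping gene APOLD1 stacked on top. DHX9 is level at 64.6 to 67.2 FPKM, DDX3X and DDX20 jump between libraries of a group, and the stacked bars of DDX47 and APOLD1 lie between 23.8 and 29.3 FPKM.

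Outside these roles, DDX28, a mitochondrial helicase of the large mitoribosome subunit, stood at 6.79, 6.86 and 7.78 FPKM in shControl and at 5.97, 5.54 and 6.52 in shBLACAT3 cells, without overlap (adjusted p 0.191). DHX30, which also acts on mitochondrial transcripts, stood at 5.94 ± 0.557 and 6.54 ± 1.14 FPKM (adjusted p 0.612). DUS2, on the opposite strand, covers 22.5% of the exonic bases of DDX28 and stood at 5.51 ± 0.123 and 5.02 ± 0.305 FPKM (adjusted p 0.39). DDX11 stood at 2.67 ± 0.137 and 3.30 ± 0.350 FPKM, without overlap (adjusted p 0.175). DHX40 was at 19.7, 18.8 and 18.0 and at 16.1, 17.2 and 14.9 FPKM, all shBLACAT3 libraries lower (log2 difference -0.22, SE 0.07, adjusted p 0.128), and DHX57 at 5.03 ± 0.088 and 5.78 ± 0.328, all higher (adjusted p 0.208). DDX59 had overlapping libraries at 4.73 ± 0.465 and 4.96 ± 0.599 FPKM.

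Library order within the groups differed between members. Among shBLACAT3 libraries, replicate 3 held the lowest value in 20 of 46 members (43.5%, against 36.3% of all genes) and the highest in 8 (17.4%, against 29.9%), while replicate 1 held the lowest in 7 (15.2%, against 25.3%). Leaving out shBLACAT3 replicate 3 gave 3 higher calls (DDX46, DDX55 and DHX36) and 1 lower (DHX32), and leaving out shBLACAT3 replicate 1, shControl replicate 1 or shControl replicate 2 gave 0 calls in the family. Calls over all genes moved the same way. Without shBLACAT3 replicate 3 they numbered 1342 of 10042 genes, 589 of them higher, against 938 of 10008 as reported, 257 higher. Without shBLACAT3 replicate 1, shControl replicate 1 or shControl replicate 2 they numbered 568, 357 and 409 in turn.

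**Figure D5:**
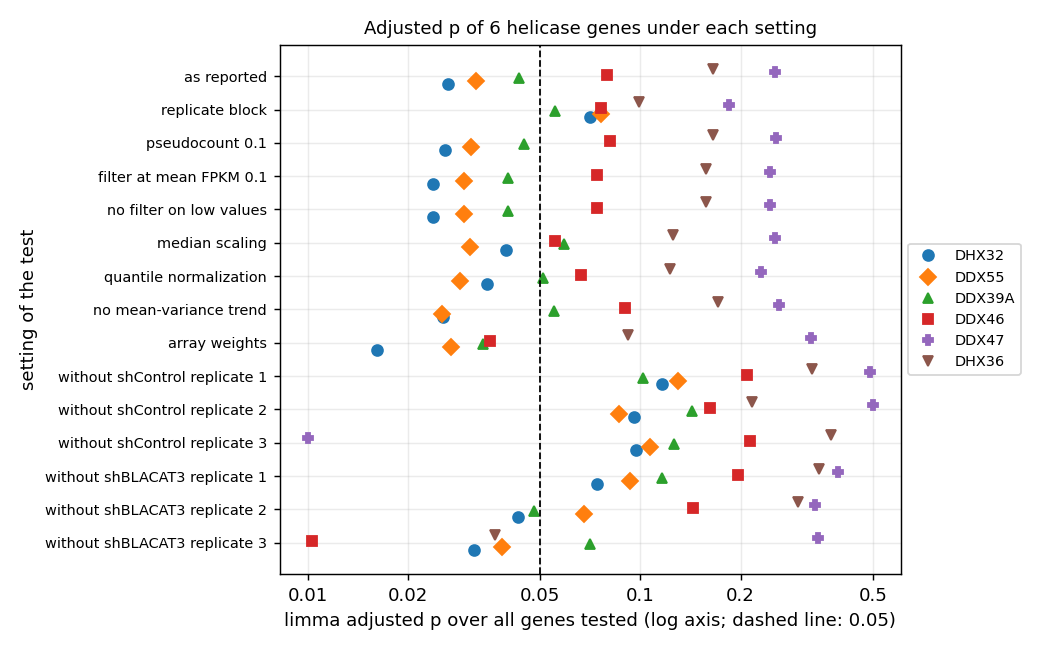
Limma adjusted p over all genes (log axis) for 6 helicase genes as reported and under 14 other settings, with a dashed line at 0.05. DHX32, DDX55 and DDX39A lie left of the line as reported and cross it when most single libraries are left out, and DDX46, DHX36 and DDX47 cross to the left without 1 named library, DDX46 also with array weights.

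Of the sensor genes that the family leaves out, those tested were lower in shBLACAT3 cells. DDX58, which encodes the cytosolic RNA sensor RIG-I, stood at 48.4, 50.2 and 44.3 FPKM in shControl and at 13.8, 14.3 and 12.3 in shBLACAT3 cells (adjusted p 7.45e-05), and DDX60 at 7.90 ± 0.611 and 2.30 ± 0.729 FPKM (adjusted p 0.00413). DHX58 and DDX60L had means under 1 FPKM over the 6 libraries and were left out of the test as reported. DHX58 stood at 1.54 ± 0.366 and 0.0276 ± 0.025 FPKM and DDX60L at 0.834 ± 0.124 and 0.435 ± 0.158, both with all shBLACAT3 libraries lower. The difference between these genes and the members was not tested.

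Genes that work with the helicases were taken from 7 lists of 98 tested genes in all, of which 6 passed (6.12%, background 9.37%), 3 higher and 3 lower, with a median log2 difference of 0.037. Of 18 related RNA helicases outside the DDX and DHX names 2 fell (11.1%, against 6.8% of all genes) and 0 rose (background 2.57%), with a median of 0.035. ZNFX1, an interferon-induced helicase that binds viral RNA, fell from 21.1 ± 1.78 to 9.16 ± 0.765 FPKM (SD, n = 3, adjusted p 0.000821) and kept its call in all 14 other settings. HELZ2, a helicase coactivator also induced by interferon, fell from 3.90 ± 0.553 to 2.0 ± 0.521 FPKM (adjusted p 0.0307), a call lost in 5 of the 6 fits that left out 1 library. ZNFX1 overlaps 3.7% of the exonic bases of its opposite-strand neighbour DDX27, which stood at 34.0 ± 3.02 and 36.3 ± 0.526 FPKM.

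Of 22 G-patch proteins, which switch on DEAH box helicases, GPATCH4 rose, from 20.3 ± 0.783 to 24.8 ± 1.29 FPKM (adjusted p 0.0491), and 0 fell (median 0.068). Of 16 MIF4G and exon junction partners, EIF4B, which stimulates the helicase eIF4A, rose from 85.0 ± 6.57 to 110 ± 1.87 FPKM (adjusted p 0.0206), and 0 fell (median 0.032). Of 12 P-body partners of DDX6, LSM14B rose from 12 ± 0.170 to 16.4 ± 1.11 FPKM (adjusted p 0.0157) and the decapping cofactor DCP1A fell from 10.7 ± 0.613 to 7.97 ± 0.1 (adjusted p 0.0206; list median 0.004). The shares called were 4.55%, 6.25% and 16.7% of these lists in turn, against 9.37% of all genes. The calls of EIF4B, LSM14B and DCP1A were each lost in 4 of the 6 fits that left out 1 library, and that of GPATCH4 in 5.

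In the other lists 0 genes passed in limma (against 9.37% of all genes). An unadjusted p under 0.05 was reached by 3 of 15 TREX partners (20%), 1 of 9 genes of the SMN complex (11.1%) and 1 of 6 of the tRNA ligase complex (16.7%). Over all genes this share was 25.7%. The medians of these lists were 0.039, -0.024 and 0.086 in turn. In the TREX list FYTTD1, an export adaptor, stood at 11, 11.4 and 10.2 FPKM in shControl and at 3.47, 3.63 and 8.60 in shBLACAT3 cells, where replicate 3 lay apart (adjusted p 0.0805, and 0.00114 without that library, range over 14 settings 0.00114 to 0.209). GEMIN4, which binds DDX20 in the SMN complex, stood at 5.59 ± 0.239 and 6.60 ± 0.471 FPKM (adjusted p 0.169). FAM98B, a partner of DDX1 in the tRNA ligase complex, stood at 5.71 ± 0.220 and 7.58 ± 0.823 FPKM (adjusted p 0.0638).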

How the data were processed

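Total RNA of T24 cells was sequenced after library preparation with a stranded kit, per the labels' protocols. Per the submitters' processing notes cutadapt, HISAT2 2.1.0 and StringTie were used, without a stated step for each. Genome build, annotation and strand setting were not given in the sources used here. Since no unit stands in the header, the numbers the authors deposited were taken to be FPKM from their range and sums. Columns headed NC and SH were read as shControl and shBLACAT3, and their number as the replicate. Symbols came from GENCODE 29 (11026 of 11081 rows matched), and rows of 3 shared symbols were summed. In every row the higher group mean was at least 0.501 FPKM, so lower genes were not analysed here.

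The test used log2(FPKM + 1) of the 10008 genes averaging 1 FPKM or more. It was limma 3.58.1 (R 4.3.3), two-sided, comparing the groups without further terms, its prior variance following the mean level, and p-values were adjusted by Benjamini-Hochberg over these genes with a threshold of 0.05. This scale understates the change of low genes. The members and lists were chosen with earlier results of these data known, and the promoter motifs and overlapping genes after values were seen. The text gives all members, and of each list up to 4 genes that passed, or else the gene of smallest p. Other settings were the replicate block, a pseudocount of 0.1, a filter at 0.1 and none, median scaling, quantile normalization, no trend, array weights and each library left out. Exon overlaps were computed from GENCODE 29 on GRCh38, as shares of a gene's exonic bases. Protein sequences were not used here.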

Additional observations from a re-analysis of the deposited data

How the results depend on the processing

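As reported, 2 members were higher and 1 was lower. With the replicate block 0 were higher and 0 lower (adjusted p 0.0704 for DHX32, 0.0759 for DDX55 and 0.0552 for DDX39A). Median scaling, quantile normalization and limma without the trend each gave 1 higher, and array weights gave 3, DDX46 among them, and the lower call stayed. Leaving out 1 library gave 0 to 3 higher and 0 to 1 lower members, and 1 to 11 calls in the partner lists (6 as reported). Over all genes the count of calls was 938, 612 with the block and 357 to 1342 with 1 library left out. Of 336 values of the 24 members named by rule under the 14 settings, 312 lay on the same side of the threshold as reported. Of the others 20 lost a call and 4 gained one, and 0 called values changed sign. Values without a call could change sign, such as that of DDX1 (-0.03 as reported and 0.05 without shBLACAT3 replicate 3). The number of members with a higher mean ran from 29 to 34 of 46. The labels do not say that replicate numbers pair the libraries, and the deviations of same-numbered libraries correlated at 0.1, 0.117 and 0.0895, the highest for each library, which is a hint from the data and not the design. Depth is unknown, so no counting error is given. In that respect the 7 members under 5 FPKM, DDX55 among them with a mean of 4.95, are the least certain. The largest SE of the log2 difference were at higher levels, 0.33 in DDX3X and 0.30 in DDX47.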

Other observations

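Some members start within 500 bases of a coding gene on the opposite strand, and 7 such neighbours were among the genes tested. DDX54 and RITA1, a regulator of Notch signalling, had differences of opposite sign. RITA1 fell from 11.3 ± 0.749 to 7.92 ± 0.868 FPKM (SD, n = 3, limma adjusted p 0.031). DDX54, at 8.10 ± 0.713 and 10.1 ± 1.84 FPKM, did not pass (log2 difference 0.28, SE 0.14, limma adjusted p 0.259). DHX29 and MTREX, the helicase of the nuclear exosome, had like differences: MTREX stood at 19.7, 22.4 and 17.7 FPKM in shControl and at 25.6, 30.1 and 21.7 in shBLACAT3 cells (adjusted p 0.169), with its lowest shBLACAT3 value in replicate 3, as in DHX29. NOC4L beside DDX51, IFI27L1 beside DDX24 and MORN2 beside DHX57 did not pass (adjusted p 0.953, 0.48 and 0.536), nor did GTF3C4 beside DDX31 and CEP95 beside DDX5 (0.395 and 0.787). These pairs were chosen after the values were seen, and the differences within pairs were not tested.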
